A study of Mus musculus with 6 samples.

Results

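The genes described here are the suppressors of cytokine signaling (SOCS) Cish, Socs1, Socs2, Socs3, Socs4 and Socs5, the kinase genes Pim1, Pim2 and Pim3, and Osm, which encodes the cytokine oncostatin M. They were taken by gene name from the deposited expression table, which lists 54532 genes, and all 10 were found in it. RNA of bone marrow (BM) cells from C57BL/6 mice was sequenced at day 100 post transplantation, with 3 libraries under the label Phf6 WT and 3 under Phf6 KO. Donor cells of both groups, controls included, had been infected with a retrovirus that encodes JAK3 M511I, an activated Janus kinase, and GFP. They were transplanted as lineage-negative progenitors of male mice into male recipients. The study reports a higher percentage of GFP+ cells in the marrow of knockout than of wild-type recipients. In first recipients this was measured later after transplantation than these libraries. Among GFP+ marrow cells of that later time, the study also reports higher percentages of myeloid and B cells in knockout recipients. The percentage of GFP+ cells in the material sequenced here is not given. The study lists Vav1-Cre;Phf6 fl/y donors as knockout and Phf6 fl/y donors without Cre as wild type; Vav1-Cre deletes in hematopoietic cells in general, so the deletion is not limited to T cells. The labels give neither the number of mice behind a library nor whether GFP+ cells were sorted, so p-values measure the spread between these libraries, which may in part be technical. In the genotype labels the digit of the gene symbol rises from sample to sample, and it was read as Phf6 throughout, as the design text of the series has it. Below, WT 1 to WT 3 and KO 1 to KO 3 name the libraries by their labels.

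Cytokine receptors that share the common gamma chain signal through JAK1 and JAK3, which phosphorylate STAT factors, chiefly STAT5. Activated STATs enter the nucleus and switch on genes that include their own inhibitors: the SOCS proteins bind phosphorylated receptors or kinases through an SH2 domain and recruit a ubiquitin ligase through their SOCS box, and Socs1 and Socs3 can also block the JAK kinase itself. Pim kinases are serine/threonine kinases that are active as soon as they are made, promote survival and growth of lymphoid cells and are frequent retroviral insertion targets in lymphoma. Oncostatin M is a secreted cytokine of the interleukin-6 family whose gene is also switched on by STAT5.

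Expression was deposited as FPKM, a number of fragments scaled to the length of the gene and the size of the library. The fragments (called reads here) could be recovered and came to between 13015823 and 18235095 per library. WT 2 stood apart from the other libraries: 17.1% of its reads lay in genes under 1000 bases long, against 3.11% to 5.01% in the others, and its correlation with the other WT libraries was 0.746 to 0.779, against 0.948 between WT 1 and WT 3 and 0.963 to 0.973 among the KO libraries. The tests of the 10 genes are therefore given with and without WT 2, as are the counts of calls among them, the whole pathway list and all genes. Other results are with all libraries unless stated. The FPKM of Phf6 was 3.67 to 8.02 in WT and 5.11 to 6.73 in KO libraries (log2 fold change -0.073, limma adjusted p = 0.893), a difference whose sign turned without WT 1 (0.055), without WT 3 (0.10) and on the TPM scale (0.69). The table counts reads over the whole gene, of which the conditional allele removes only some exons, so this value does not check the labels. Markers of T cells were expressed in all libraries, with a summed FPKM over 10 genes of 1070 to 2191 in WT and 947 to 1253 in KO. Among these, Cd4 was higher in KO and Trac and Cd5 were lower. Markers of myeloid cells were far lower in KO: the 10 neutrophil genes, all past the test, summed to 6785 to 95287 in WT and 93.3 to 287 in KO, and the 8 genes of monocytes and macrophages, 5 of 7 tested being lower, to 372 to 4744 and 19.5 to 26.9. Sums for B cells (7 genes, 11.3 to 1033 against 1.01 to 1.34), erythroid cells (8 genes, 137 to 68045 against 16.9 to 126) and megakaryocytes (5 genes, 4.96 to 59.3 against 0.264 to 0.321) were highest in WT 2. Gp1bb was at 0 in all libraries and Ppbp at 0 in all KO libraries. Of the 3 B cell genes tested, 0 passed with all libraries and 3, all lower, without WT 2. The lower myeloid and B cell sums in KO ran opposite to the percentages that the study reports for GFP+ marrow cells at a later time. The reason was not tested. The 6 NK cell genes summed to 98.5 to 123 in WT and 566 to 616 in KO, where Gzma was higher, the other 4 genes tested were lower and Klra8, 1 of these 4, was at 0. These 4 and the myeloid genes Cxcr2, Csf1r and Itgam were below an FPKM of 1 in every KO library. They could enter the test, described below, only by being high in WT. Of all genes tested 13.3% were lower and 13.1% higher in KO.

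To ask whether the feedback and output genes of JAK-STAT signaling differed between Phf6 genotypes in JAK3 M511I cells, the 10 genes were compared by limma on log2(FPKM + 1), with p-values adjusted by the Benjamini-Hochberg method over the 13393 genes that reached an FPKM of 1 in 3 or more libraries. This scale understates the change of genes with low FPKM. All 10 genes passed that filter, Socs2 and Socs5 through their WT values alone, since both were below 1 in every KO library. Osm, Pim2, Socs2 and Pim1 were lower in KO and Socs1 was higher, while Cish, Socs3, Socs4, Socs5 and Pim3 did not pass a threshold of 0.05. Of all genes tested 26.4% passed it, 13.1% higher and 13.3% lower in KO, so 5 of 10 is to be read against 26.4%, 1 of 10 higher against 13.1% and 4 of 10 lower against 13.3%. The median log2 fold change of the 10 genes was -1.04, beside 0.086 over all genes tested, and 8 of 10 were below 0, as were 46.4% of all genes. WT and KO values did not overlap for 8 of 10 genes, a pattern found in 49.1% of all genes tested. For 2 of these KO was above WT, against 26.2% of all genes, and for 6 below, against 22.9%. Socs2 is among the 4 lower calls, and Socs2 and Socs5 are among the 6 genes with KO below WT. Both could enter the test only by being high in WT, so these counts are no support for a change of the list. In bulk RNA, fewer cells of a type and less RNA per cell cannot be told apart, here and in the results that follow.

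**Figure D1:**
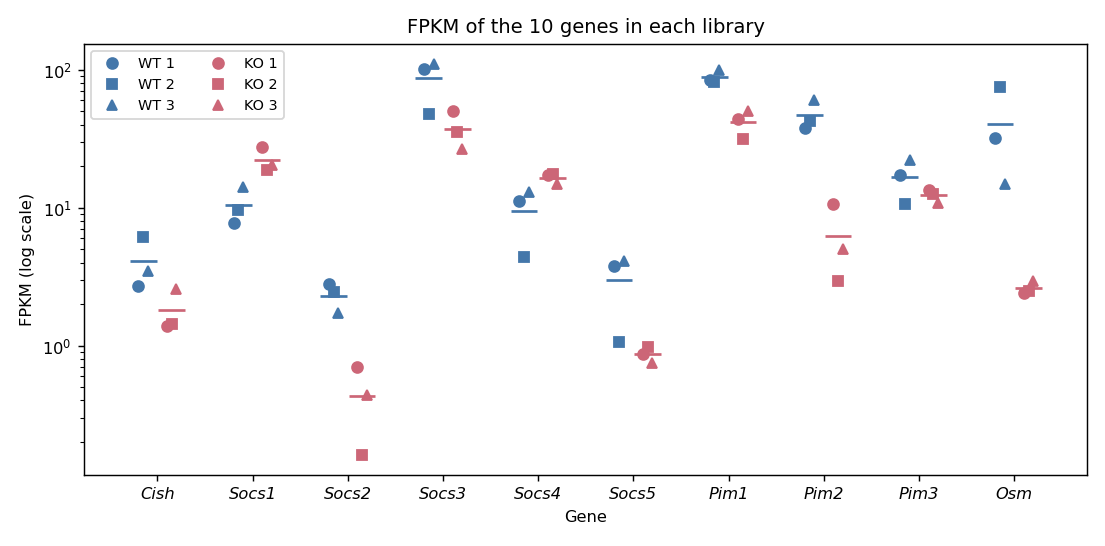
FPKM of the 10 genes in each library on a log scale, with WT libraries in blue, KO libraries in red, a symbol for each replicate number and a bar at the group mean (n = 3). Osm, Pim2 and Socs2 show the widest gaps between the groups, and Socs1 and Socs4 are the genes whose KO values all lie above the WT values.

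Socs1, an inhibitor of JAK kinases and a strong brake on interferon and interleukin-2 family signaling, was the gene of the 10 that passed the test as higher with all libraries. It is ENSMUSG00000038037 at chr16:10782240-10785536 on the minus strand (GRCm38, as are all positions here). Its FPKM was 7.80, 9.62 and 14.2 in WT 1, WT 2 and WT 3 and 27.6, 18.8 and 20.4 in KO 1 to KO 3. Every KO library lay above every WT library, with means of 10.5 ± 3.30 and 22.3 ± 4.69 (SD, n = 3 each), a ratio of means of 2.11. On the log2 scale it was higher by 1.03 ± 0.30 (SE, limma adjusted p = 0.0463, close to the threshold). Leaving out WT 2 kept the call at 0.99 (adjusted p = 0.0286), but it was lost when WT 1 was omitted (0.85, adjusted p = 0.131), and likewise KO 1 (0.87, 0.171), KO 2 (1.14, 0.112) or KO 3 (1.08, 0.130). Over all alternatives its adjusted p ran from 0.0012 to 0.171.

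Socs2 encodes a SOCS protein best known for limiting growth hormone signaling and is a frequent STAT5 target. The gene (ENSMUSG00000020027, chr10:95385362-95417180, minus strand) fell. Its FPKM was 2.77, 2.43 and 1.71 in the WT libraries and 0.698, 0.160 and 0.437 in the KO libraries. The groups did not overlap, and the mean fell from 2.30 ± 0.541 to 0.432 ± 0.269, so that WT was 5.34 times KO. These low values rest on 253 to 408 reads in WT and on 124, 24 and 67 reads in KO 1, KO 2 and KO 3. The log2 fold change was -1.21 ± 0.23 (SE, adjusted p = 0.0113) with all libraries and -1.18 without WT 2 (adjusted p = 0.00942). Without KO 2, which had the lowest value, it was -1.07 and no longer passed (adjusted p = 0.0568), in a range of 2.9e-04 to 0.112 over the alternatives.

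Cish, which encodes CIS, a negative regulator of STAT5 and of T cell receptor signaling, did not pass the test although its groups did not overlap. The gene (ENSMUSG00000032578, chr9:107296026-107302784, plus strand) gave 2.68, 6.08 and 3.45 FPKM in WT 1 to WT 3 against 1.39, 1.42 and 2.58 FPKM in KO 1 to KO 3. WT 2 was the highest library, and WT 1 and KO 3 lay close together. Its log2 fold change was -0.83, with a 95% confidence interval of -1.62 to -0.033 (adjusted p = 0.120), and stayed short of the threshold without WT 2 (-0.56, adjusted p = 0.0970). None of the alternatives that tested Cish brought it past the threshold (adjusted p from 0.0534 to 0.627).

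Socs3, which restrains signaling through gp130 and the receptors of G-CSF and leptin, was the most abundant SOCS gene in both groups. The gene lies at chr11:117966079-117970047 on the minus strand (ENSMUSG00000053113). FPKM values of 101, 48.2 and 111 were found in WT 1, WT 2 and WT 3, and values of 50.2, 35.3 and 26.6 in KO 1 to KO 3. The groups overlapped through WT 2, which lay just below KO 1. With all libraries the log2 fold change of -1.15 (95% confidence interval -2.15 to -0.15) did not pass the test (adjusted p = 0.0923), and without WT 2 it was -1.52 and passed (adjusted p = 0.00516).

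Socs5 and Socs4, a related pair with long N-terminal regions, are known as regulators of EGF receptor signaling, and Socs5 also of interleukin-4 signaling. Socs5 (ENSMUSG00000037104, chr17:87107679-87137583, plus strand) was measured at 3.81, 1.07 and 4.13 FPKM in WT and 0.868, 0.983 and 0.750 FPKM in KO, the latter from 53 to 71 reads. WT 1 and WT 3 lay well above all other libraries, and WT 2 only just above KO 2. Its log2 fold change was -0.99 (95% confidence interval -1.90 to -0.083, adjusted p = 0.106), and without WT 2 it was -1.41 and passed (adjusted p = 0.00107). Socs4 (ENSMUSG00000048379, chr14:47276931-47296102, plus strand) pointed the other way, with an FPKM of 11.1, 4.42 and 12.9 in WT and of 17.3, 17.4 and 14.9 in KO. No KO library was below a WT library, but KO 3 and WT 3 were near each other. For Socs4 the log2 fold change was 0.85 (95% confidence interval -0.090 to 1.79, adjusted p = 0.168). Without WT 2, the lowest library, it was 0.43 and just passed (adjusted p = 0.0462).

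Of the Pim kinases, Pim2 and Pim1 fell and Pim3 did not pass the test. Pim2, the family member most tied to lymphoid growth, is ENSMUSG00000031155 at chrX:7878262-7883432 on the plus strand. FPKM was 38.1, 42.3 and 60.4 in the WT libraries and 10.7, 2.95 and 5.04 in the KO libraries. The groups were far apart, and KO 1 was the highest of the KO libraries. Means of 46.9 ± 11.8 and 6.23 ± 4.0 gave a WT to KO ratio of 7.53, and the log2 fold change was -2.85 ± 0.44 (SE, adjusted p = 0.00481). It was -2.91 without WT 2 (adjusted p = 0.00403), and of 18 alternatives 17 kept the call.

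Pim1, the founding member, whose messenger RNA is short-lived and induced by many cytokines, fell to a smaller degree. The gene (ENSMUSG00000024014, chr17:29490812-29496111, plus strand) reached an FPKM of 84.7, 82.2 and 99.3 in WT and of 44.1, 31.3 and 50.1 in KO. The groups were well apart, and the WT to KO ratio of means was 2.12 (88.7 ± 9.26 against 41.8 ± 9.60). The log2 fold change of -1.09 ± 0.28 (SE) passed the test (adjusted p = 0.0302), and did so without WT 2 (-1.14, adjusted p = 0.00765). It did not pass when any other library was left out, where it was -1.12 with WT 1 omitted (adjusted p = 0.0778), -1.01 with WT 3 omitted (0.0816), -1.14 with KO 1 omitted (0.0966), -0.90 with KO 2 omitted (0.144) and -1.23 with KO 3 omitted (0.0728). The range over all alternatives was 0.00126 to 0.702, the upper end on the TPM scale.

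Pim3 overlaps in function with the other two kinases. The gene (ENSMUSG00000035828, chr15:88862186-88865726, plus strand) gave 17.1, 10.7 and 22.0 FPKM in WT and 13.4, 12.7 and 10.7 in KO. All KO values lay inside the WT range, with KO 3 and WT 2 almost equal at its lower end. Its log2 fold change was -0.36 (95% confidence interval -1.10 to 0.38, adjusted p = 0.449), it turned to 0.44 on the TPM scale (adjusted p = 0.626), and without WT 2 it was -0.63 and passed (adjusted p = 0.0236).

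Osm, which signals through gp130-containing receptors and is made by activated T cells and by myeloid cells including neutrophils, had the largest fall of the 10 genes on the log2 scale with all libraries, while Pim2 fell more without WT 2 (-2.91 against -2.67) and without KO 1 (-3.26 against -3.20), and with the length trend removed without WT 2 (-2.97 against -2.75). The gene (ENSMUSG00000058755, chr11:4236420-4241026, plus strand) stood at 32.1, 74.9 and 14.8 FPKM in WT 1 to WT 3, whereas KO 1 to KO 3 gave 2.41, 2.49 and 2.95 FPKM. The KO libraries were nearly alike, and the WT libraries spread over a wide range that stayed above all of them. The WT mean of 40.6 ± 30.9 was 15.5 times the KO mean of 2.62 ± 0.293, a ratio that was 8.97 without WT 2, and the log2 fold change was -3.24 ± 0.55 (SE, adjusted p = 0.00709). It passed under all 18 alternatives that were run, with values from -3.80 to -2.67, the latter without WT 2. Within WT the order of Osm (WT 2, WT 1, WT 3) was also that of the summed neutrophil markers, 95287, 33428 and 6785 FPKM, and that of the monocyte and macrophage markers, 4744, 1847 and 372 FPKM. All 10 neutrophil genes were lower in KO. The part of these cells in the fall of Osm was not tested.

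**Figure D2:**
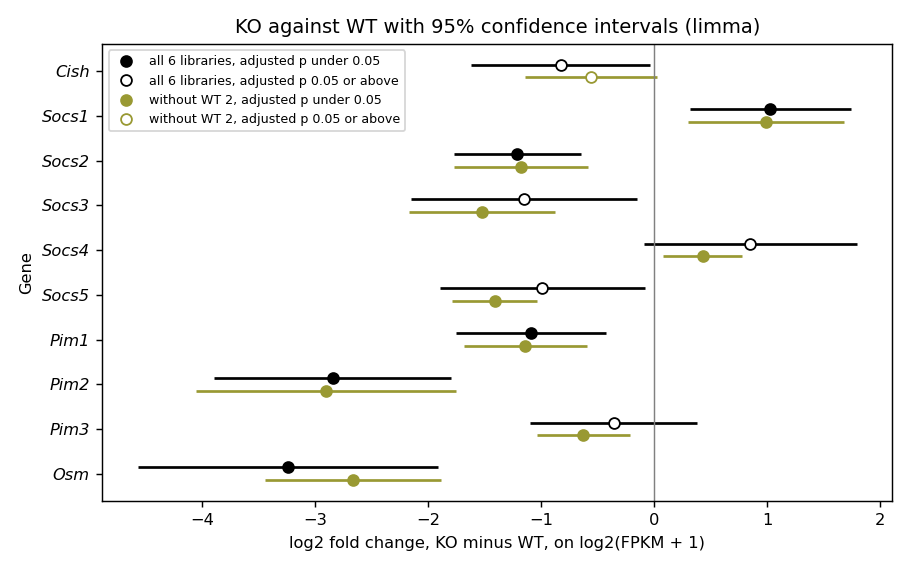
Log2 fold change of each gene, KO minus WT, on the log2(FPKM + 1) scale with 95% confidence intervals from limma, with all 6 libraries (black) and without WT 2 (olive), and filled circles where the adjusted p was under 0.05. With all libraries 5 genes are filled, and without WT 2 all but Cish are.

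Without WT 2, 9 of the 10 genes passed the test, 2 higher (Socs1 and Socs4) and 7 lower, but so did 52% of all genes tested, 26.8% higher and 25.3% lower. The 7 include Socs2 and Socs5, which entered the test through WT alone. Leaving out any other single library left 0 or 1 gene higher and 2 or 3 lower. Osm and Pim2 passed each time.

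The levels of the 10 genes can be set side by side as FPKM, which is per length. In WT libraries the order of mean FPKM was Pim1 (88.7), Socs3 (86.7), Pim2 (46.9), Osm (40.6), Pim3 (16.6), Socs1 (10.5), Socs4 (9.48), Cish (4.07), Socs5 (3.0) and Socs2 (2.30), and the ranges of each neighbouring pair overlapped. Among KO libraries it was Pim1 (41.8), Socs3 (37.4), Socs1 (22.3), Socs4 (16.6), Pim3 (12.3), Pim2 (6.23), Osm (2.62), Cish (1.80), Socs5 (0.867) and Socs2 (0.432). Here Pim1 overlapped with Socs3, Socs3 with Socs1, and Osm with Cish, and the other neighbours did not. Pim1 and Socs3 headed the order in both groups, while by mean FPKM Socs1 and Socs4 stood above Pim2 and Osm in KO and below them in WT. The length in the table equalled the joined exons of GENCODE M21 for 8 of the 10 genes and was shorter for Socs5 and Pim1. For Socs2, Pim2 and Cish it was 4.29, 2.51 and 2.25 times that of the main annotated transcript (0.945 to 1.13 for the others). The FPKM of Socs2 and Cish is therefore low for their messenger RNA. The chosen Pim2 transcript has 1113 bases, 1110 of them coding, and no annotated 3′ UTR, so its ratio does not show this for Pim2. The length used does not touch comparisons of a gene between groups.

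The make-up of the SOCS family, to which Socs6 and Socs7 were added, was compared as the share of each gene in the summed FPKM, which does not depend on the scaling of a library. The shares of a library add up to the whole, so a lower share of any gene raises the others. They are therefore not separate results. Socs3 gave 70.4%, 63.3% and 69.6% of the summed SOCS FPKM in WT 1, WT 2 and WT 3, and 44.9%, 41.3% and 34.7% in KO 1 to KO 3. Over the same libraries Socs1 gave 5.45%, 12.6% and 8.89% in WT and 24.7%, 21.9% and 26.6% in KO. The share of Socs4 went from 7.22% ± 1.24 to 18.4% ± 2.58 and that of Socs7 from 3.61% ± 1.70 to 10.2% ± 0.390 (SD, n = 3). Shares of Socs2 (2.07% ± 1.06 against 0.460% ± 0.238) and Socs5 (2.21% ± 0.706 against 0.968% ± 0.187) were lower in KO. All these shares were without overlap between the groups, and each had an exact two-sided permutation p of 0.1, the smallest that 3 against 3 libraries can give. Shares of Cish (p = 0.5, exact permutation) and Socs6 (p = 0.2) overlapped. Summed SOCS FPKM itself was 76.2 to 160 in WT and 76.7 to 112 in KO, ranges that overlap. With recovered reads in place of FPKM, which weights long genes more, each share difference kept its sign, but that of Socs1 went from 15.4 to 9.53 points, Socs2 from -1.60 to -4.04, Socs6 from -0.97 to -2.83, Socs7 from 6.57 to 10.2 and Cish from -1.91 to -3.56.

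Within the Pim family the share of Pim2 was 27.2%, 31.3% and 33.2% in WT and 15.7%, 6.30% and 7.66% in KO. Pim1 made up 58.7% ± 3.47 in WT and 69.1% ± 6.08 in KO, and Pim3 10.8% ± 2.47 and 21% ± 5.46. Again no share overlapped, with p = 0.1 in the exact permutation test for each. These are not separate results, since a lower share of Pim2 raises the shares of Pim1 and Pim3. By FPKM, Pim1 was lower in KO and Pim3 did not pass the test, as given above. The 11 shares were tested as a family without adjustment, since none can pass 0.05 at this sample size. Summed Pim FPKM was 135 to 182 in WT and 46.9 to 68.2 in KO, without overlap on the deposited scale. On the TPM scale the Pim sums overlapped, at 151 to 594 TPM in WT, with WT 2 the lowest of all libraries, and 187 to 278 TPM in KO. The SOCS sum overlapped on both scales, and in every KO library it held a smaller share of Socs3 and larger shares of Socs1, Socs4 and Socs7.

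**Figure D3:**
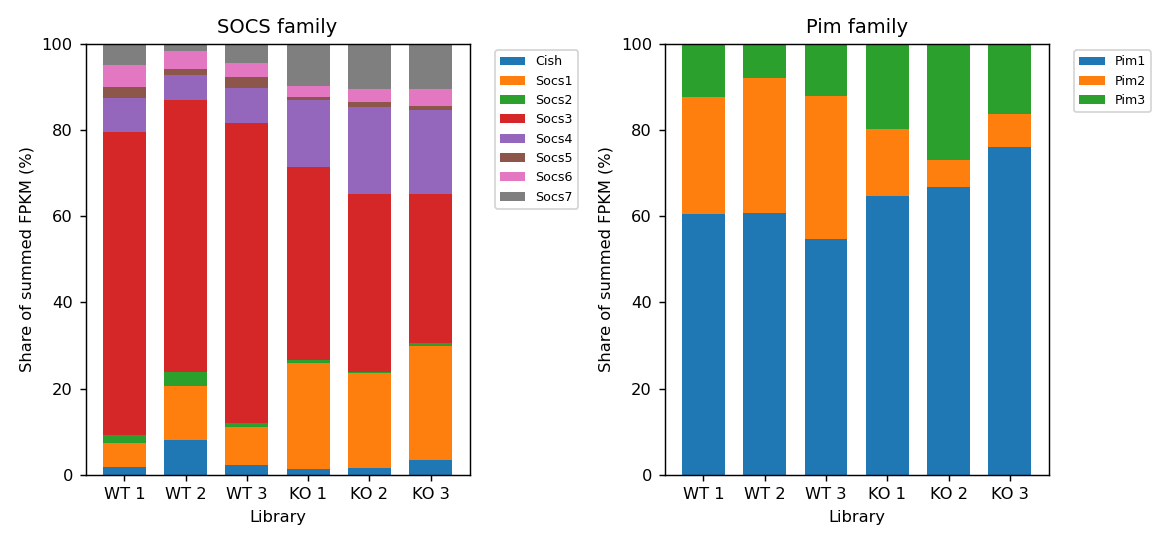
Share of each gene in the summed FPKM of its family, in percent, stacked to 100% per library, for 8 SOCS genes (left) and 3 Pim genes (right). Socs3 takes 63.3% to 70.4% of the SOCS sum in WT and 34.7% to 44.9% in KO, and Pim2 takes 27.2% to 33.2% of the Pim sum in WT and 6.30% to 15.7% in KO.

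Short sequence features of the genes were read from the references. The palindromic pattern TTCNNNGAA, to which STAT factors bind, was searched in the 250 bases before the start of each RefSeq transcript (GRCm38.p6), and reads the same on both strands. RefSeq windows were found for 7 of the 10 genes, and none was given for Socs2, Socs5 and Osm. The pattern was found in 1 of the 7, Socs3, and in 7.02% of all 32851 windows. With the 50 bases after the start included, a search added after the data were seen, Cish also held it, as 2 copies, against 8.30% of all windows. These stretches are printed because they are the matches among the 7 genes, with the pattern in capitals:
Socs3: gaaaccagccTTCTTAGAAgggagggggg
Cish: gttTTCCTGGAAagTTCTTGGAAatc
The Socs3 stretch lies at chr11:117969502-117969530 on the minus strand, with the pattern starting 154 bases before the RefSeq start. In GENCODE M21 it falls within an intron of 1 of 3 Socs3 transcripts and upstream of the others. The Cish stretch lies at chr9:107296656-107296681 on the plus strand, its copies starting at bases 1 and 12 of the transcript, in non-coding exon sequence of 1 of 5 annotated transcripts. Socs3 and Cish were both lower in KO by log2 value without passing the test, and the 3 genes with windows that passed, Socs1, Pim1 and Pim2, held no match in them. A match is a description of the letters and does not show binding.

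Messages of cytokine-induced genes often carry AU-rich elements in the 3′ UTR, which shorten the life of the RNA. The nonamer TTATTTATT, overlapping copies counted and the transcript strand alone searched, was looked for in the 3′ UTR of a main GENCODE M21 transcript of each gene, a search also added after the data were seen. It was found in 2 of 10 genes, Pim1 and Cish, and in 7.13% of 20741 protein-coding genes with a 3′ UTR. The chosen transcript of Pim2 has no annotated 3′ UTR. Around the nonamers, in capitals, the sequences read:
Pim1: atgtatTTATTTATTTATTTATTtggttg
Cish: tacagtatTTATTTATTTATTctccttgc
The Pim1 stretch starts at base 946 of a 3′ UTR of 1365 bases and holds 3 overlapping copies, and the Cish stretch starts at base 479 of 1087 and holds 2. Pim1 passed the test and Cish did not, so the genes with the nonamer fall on both sides of the threshold.

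Of the other genes of the pathway, from a list of 57 receptors, kinases, STAT factors, inhibitors and output genes, 51 could be tested. Among them 18 were lower and 4 higher in KO, which is 43.1% of those tested against 26.4% of all genes, with a median log2 fold change of -0.42. Of these calls 5 belong to genes that met the filter on low values through 1 group alone (Il9r in KO, and Il6ra, Csf2rb, Csf3r and Pias3 in WT), so they could enter the test only by being high there, and the share is no support for a change of the list. Receptors of the common gamma chain, which signal through JAK3, counted 5 lower and 2 higher genes of 8. That is 87.5% of this list, beside 26.4% of all genes (13.3% lower and 13.1% higher). Il2ra, the alpha chain of the interleukin-2 receptor, had an FPKM of 0.545 to 2.16 in WT and of 220 to 245 in KO (log2 fold change 6.71, adjusted p = 2.3e-04). Il9r, the interleukin-9 receptor, went from 0.471 to 0.516 in WT to 26.5 to 30.5 in KO (4.29, adjusted p = 2.3e-04), having entered the test through KO alone. In the same libraries Il2rb, the signaling beta chain shared by the interleukin-2 and interleukin-15 receptors, fell from 167 to 396 in WT to 2.34 to 9.21 in KO (-5.41, adjusted p = 0.0012). Il4ra, the interleukin-4 receptor, was 56.3 to 86.0 in WT and 1.22 to 2.11 in KO (-4.78, adjusted p = 2.6e-04). So receptor chains of the same family moved in opposite directions. The groups did not overlap for any of these 4, which were named for their small p. A lack of overlap was found in 49.1% of all genes tested.

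Outside that family, Stat5a, a STAT factor that acts below JAK3, rose from an FPKM of 5.40 to 8.58 in WT to 22.9 to 31.1 in KO (log2 fold change 1.78, adjusted p = 0.00425). Pias2, which encodes a SUMO ligase of the inhibitor family PIAS, went from 4.99 to 5.61 to 11.4 to 12.8 (1.02, adjusted p = 0.0145). Of 7 STAT genes 1 was higher and 2 lower, and of 4 JAK kinases 1 was lower, which is 42.9% and 25% of these lists against 26.4% of all genes. Csf2ra, a receptor chain for GM-CSF that is typical of myeloid cells, fell from 26.9 to 108 in WT to 1.28 to 1.98 in KO (-4.52, adjusted p = 0.00155). Il6ra, the receptor that binds interleukin-6, fell from 7.19 to 22.8 to 0.0870 to 0.194, the latter from 14 to 27 reads (-3.77, adjusted p = 0.00156), and entered the test through WT alone. Myeloid marker sums fell in the same libraries, as given above. Within WT neither receptor had the order of those sums (WT 2, WT 1, WT 3). In WT 1 to WT 3, Csf2ra was 108, 63.1 and 26.9 and Il6ra was 22.8, 7.19 and 17.8. The part of myeloid cells in the fall of these receptors was not tested. The remaining SOCS genes did not pass, with -0.64 for Socs6 (adjusted p = 0.190) and 0.97 for Socs7 (adjusted p = 0.233), and without WT 2 Socs6 was -0.92 and passed (adjusted p = 0.0085). Without WT 2, 25 pathway genes were lower and 9 higher, which is 66.7% of the 51 against 52% of all genes in the same fit.

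**Figure D4:**
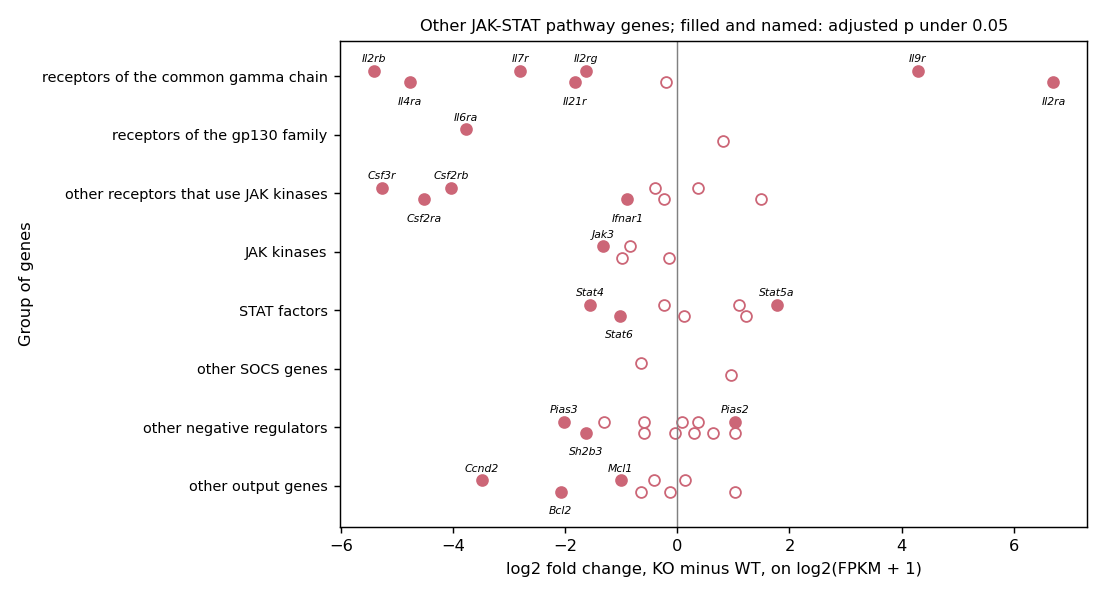
Log2 fold change, KO minus WT, on the log2(FPKM + 1) scale for the 51 pathway genes tested, by group, with filled and named circles where the limma adjusted p was under 0.05. The receptors of the common gamma chain span the widest range, from -5.41 (Il2rb) to 6.71 (Il2ra), and 18 of the 22 filled circles lie below 0.

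Genes with profiles most like those of the 10 were looked up among 10387 protein-coding genes, by the root mean square distance between centred log2(FPKM + 1) values over the 6 libraries, and are given as a description. For Osm they were Ebi3, Cebpa and Tusc1 (distance 0.160 to 0.171), and for Pim2 Cd6, St6gal1 and Tspan4 (0.243 to 0.322). Socs1 was closest to Akr1b10, Usp3 and Nudt16 (0.141 to 0.156), Socs2 to Mboat7, Vps37c and Snx10 (0.0451 to 0.0850) and Pim1 to Arhgap18, Idua and Prkcq (0.117 to 0.126). Ebi3 encodes a subunit shared by cytokines of the interleukin-12 family, Cebpa a transcription factor of the myeloid lineage and Cd6 a surface protein of T cells. Nearest to Cish were Cltb, Snx5 and Psme2b (0.115 to 0.129), to Socs3 Baiap3, Tnfrsf26 and Wdfy1 (0.147 to 0.163), to Socs4 Senp5, Ercc6l2 and Golga5 (0.0380 to 0.0478), to Socs5 Bahd1, Snx14 and Spty2d1 (0.0694 to 0.102) and to Pim3 Sike1, Sbsn and Arhgap15 (0.0696 to 0.0733).

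The scaling of the libraries shifted all 10 genes. On the TPM scale each library is divided by its own summed FPKM, which was 897352 in WT 2 and 244936 to 329893 in the others. No fit on that scale left out WT 2. With all libraries the median of all genes went from 0.086 to 0.86 on it, and the part of calls that were higher in KO from 49.6% to 67.8%. Relative to that median, Osm was -3.56, Pim2 -3.04, Socs2 -2.11, Pim1 -1.12 and Socs1 1.03 on the log2 scale, and relative to the median of the deposited scale Socs1 was 0.94. On TPM itself Osm (-2.71, adjusted p = 0.00423) and Socs1 (1.89, adjusted p = 0.0486) passed the test, and Pim2 (-2.19, adjusted p = 0.0570), Socs2 (-1.25, adjusted p = 0.112) and Pim1 (-0.27, adjusted p = 0.702) did not.

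**Figure D5:**
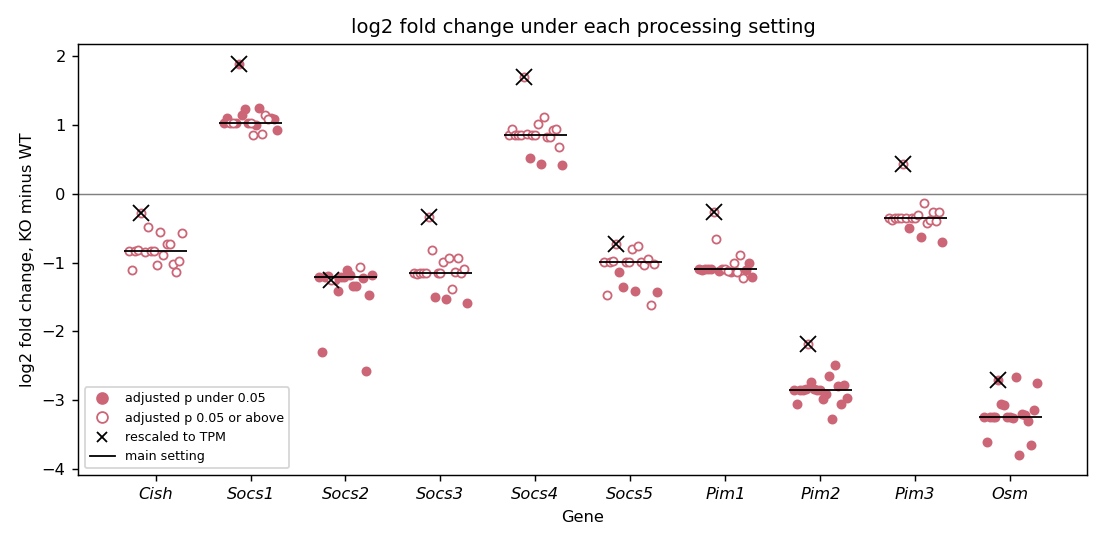
Log2 fold change, KO minus WT, of each gene under each processing setting (1 point per setting, filled where the adjusted p was under 0.05), with the value as reported as a line and the value on the TPM scale as a cross. Osm is filled throughout, Cish nowhere, and the TPM cross lies above the line for all genes but Socs2.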

How the data were processed

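The 10 genes and the lists were chosen with earlier results of these data known. RNA extracted with Trizol was made into libraries with a NEBNext kit and sequenced by the authors as paired ends of 150 bases. The submitters' processing notes name HISAT2 (2.0.5), featureCounts (1.5.0-p3) and the build GRCm38 (mm10). The use of strand is not given in the sources used here. Antisense neighbours of Cish and Pim1 had at most 4 reads. The authors deposited 1 table of FPKM per gene and library with gene lengths and coordinates. Coordinates equalled GENCODE M21 for 8 of the 10 genes (not Socs5 and Pim1). FPKM times length was a whole multiple of 1 step for 100% of values above 0 (tolerance 0.001 reads), which gave the reads. The library size the authors divided by was 0.645 times the recovered total in WT 2 and 1.01 to 1.21 times in the others. The deposited FPKM thus include a scaling of unstated method. Reads at 0 allow up to 3 reads, or 0.161 to 0.255 RPM, for counting error only.

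Genes reaching an FPKM of 1 in 3 or more of the 6 libraries were tested with limma 3.58.1 (R 4.3.3; lmFit, eBayes with trend, two-sided) on log2(FPKM + 1), with Benjamini-Hochberg adjustment and a threshold of 0.05. The design assumed FPKM, and the model was tested on simulated data. Shares were tested by exact permutation (Python 3.11.15 and NumPy 2.4.6). Other software was pandas 2.3.3 and Matplotlib 3.10.9. Named genes are the 10, Phf6, Socs6, Socs7, up to 4 pathway genes per direction with the smallest p past the threshold, markers at 0 and the 3 most similar genes each. The 4 T and NK cell markers Cd4, Trac, Cd5 and Gzma were named after their values were seen. So were the myeloid markers Cxcr2, Csf1r and Itgam and the receptor and inhibitor genes Csf2rb, Csf3r and Pias3. Alternatives changed the pseudocount, filter, scaling, weights, trend, block, library set and test. Protein sequences were not used here.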

Additional observations from a re-analysis of the deposited data

How the results depend on the processing

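The counts of calls moved with the libraries and with the scaling. As reported, 1 of the 10 genes was higher and 4 were lower in KO, with 1754 and 1785 of all genes and 4 and 18 pathway genes. Leaving out each library in turn gave 0 to 2 of the 10 genes higher and 2 to 7 lower, 938 to 3584 and 996 to 3383 of all genes, and 3 to 9 and 10 to 25 pathway genes, with the highest counts without WT 2 and the lowest of all genes without KO 2. Array weights gave 2 and 7 of the 10 genes, 4388 and 4073 of all genes and 9 and 28 pathway genes. Without a filter 0 of the 10 were higher by limma (Socs1 has an unadjusted p of 0.0118 as reported), and a mean FPKM of at least 5, which tests fewer genes (7 of the 10), gave 0 higher, with 786 and 1051 of all genes. On the TPM scale 1 of the 10 was lower, with 1081 of all genes lower and 8 and 7 pathway genes, and the sign turned for Pim3 (0.44) and Phf6 (0.69). Without single libraries Phf6 ran from -0.37 to 0.10, above 0 without WT 1 (0.055) and WT 3 (0.10). Quantile normalization gave 7 pathway genes higher. Removing the length trend without WT 2, added after the data were seen, gave 2 and 7 of the 10 genes, 3399 and 3567 of all genes and 9 pathway genes higher. Without single libraries the difference in the share of Cish ran from -2.98 to 0.076 points, the latter without WT 2. The causes were not tested.

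Of the alternatives run, 18 of 18 kept the call of Osm, 17 of 18 that of Pim2, 15 of 17 that of Socs2, 11 of 18 that of Socs1 and 10 of 18 that of Pim1. Cish passed in 0 of 17, Socs3, Socs4 and Pim3 in 3 of 18 and Socs5 in 4 of 17. Samples with the same replicate number showed little joint deviation from their group means (r = 0.0954, 0.105 and -0.153). With 3 libraries per group this cannot exclude a pairing. With the replicate block in limma 0 of the 10 genes were higher and 3 lower, with Socs1 at 1.03 (adjusted p = 0.113) and Pim1 at -1.09 (adjusted p = 0.0815). The tests for counts planned on the recovered reads (edgeR and DESeq2) were not run, because the deposited unit is FPKM; limma voom on those reads, added in their place after the data were seen, gave 1 higher and 4 lower. Depth limits Socs2, which had 24 reads in KO 2, and Socs5, with 53 to 71 reads in KO libraries.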
